A study of Mus musculus with 8 samples.

Results

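T cells and cytotoxic lymphocytes of the colon were followed through 10 genes: Cd3e, Cd3d and Cd3g of the T cell receptor complex, the adhesion receptor Cd2, the coreceptor chains Cd8a and Cd8b1, the kinase Lck, and the granule genes Nkg7, Gzma and Gzmb. Members were the probes that the platform annotation names for these symbols, and 10 of the 25697 probes were found, for 9 of the 10 genes. Lck had no probe under that name and was not analysed here. Of the 9 genes, 6 were detected on all 8 arrays and could be tested, while Cd8a, Gzma and Gzmb were detected on 0. Of the 16593 genes with a probe, 10184 could be tested, which required detection on at least 4 arrays. Of those 10184 genes 87.1% were detected on all 8 arrays, as were all 6 members tested.

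The RNA came from whole colons of C57BL/6 mice, 4 knockout and 4 wildtype, hybridised to 1 Illumina beadchip. Knockout mice carried Villin-CreERT2 and Ihh fl/fl, and wildtype mice carried Villin-CreERT2 and Ihh +/+. All mice of both genotypes were given tamoxifen at 1 mg a day over 5 days, and the organ was taken on day 7. Villin drives the recombinase in the intestinal epithelium, so lymphocytes themselves were not the target of the deletion, and the labels state neither age nor sex. The titles number the colons, which were taken as separate mice, and p-values measure the spread between these samples. The comparison asks what follows in the colon when Indian hedgehog, an epithelial signal received by the mesenchyme, is removed from the epithelium.

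A T cell recognises a peptide through a receptor that signals by way of the CD3 chains, which carry the activation motifs that the receptor lacks. The coreceptor CD8 binds class I molecules and brings the kinase Lck to the receptor, and cytotoxic cells kill through granules that hold perforin and granzymes. In the gut such cells lie both within the epithelium, where many carry CD8, and in the lamina propria and its lymphoid follicles.

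The 6 measured genes were all on average higher in knockout than in wildtype colons, and 0 passed the threshold. The differences ran between 0.13 for Cd3d and 0.82 for Cd8b1 on the log2 scale, with a median of 0.44 against -0.0047 over the 10184 genes tested. All 6 having a positive difference stands beside 49.1% of all tested genes. By limma at an adjusted p under 0.05, 0.0196% of all tested genes were called in either direction and 0% were called higher. At an unadjusted p under 0.05, 2 of the 6 genes, Nkg7 and Cd2, were higher, against 6.70% of all tested genes, and 0 were lower, against 4.34%. In 0 of the 6 did the values of the 4 knockout colons lie wholly above those of the 4 wildtype colons, against 4.85% of all tested genes, and in 0 wholly below, against 2.83%. These are bulk samples, in which more cells of a type and more RNA per cell cannot be told apart.

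Facts of the whole series bear on every value below. Mean intensity per array lay between 902.4 and 1258, and 14465 to 15040 probes were detected. Ihh, the deleted gene, was measured at 9.56, 9.03, 9.28 and 9.50 on the log2 scale in knockout mice 1 to 4 and 10.47, 10.5, 10.42 and 10.17 in wildtype mice 1 to 4, with no overlap (limma adjusted p = 0.13). Where its probe lies relative to the deleted part was not analysed here. Xist was low, a male pattern, in 3 of 4 knockout and 1 of 4 wildtype mice. Knockout 4 had the lowest mean correlation with the other arrays (0.956). The knockout arrays took positions E to H of the beadchip and the wildtype arrays A to D, so position and genotype cannot be told apart except through a straight trend along the chip.

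The chains of the T cell receptor complex were measured on every array. Cd3e encodes the epsilon chain, which pairs with the gamma or the delta chain. Its log2 intensities were 6.97, 6.84, 7.42 and 6.53 in knockout mice 1 to 4 and 6.66, 6.52, 6.20 and 7.56 in wildtype mice 1 to 4. The highest colon was wildtype 4 and the next knockout 3, so the groups overlapped. The difference was 0.20 (SE 0.30, 95% confidence interval -0.47 to 0.87), and the limma adjusted p was 0.804. It was 0.024 without wildtype 3, 0.044 without knockout 3, 0.133 without wildtype 2, 0.34 without knockout 4 and 0.479 without wildtype 4.

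Cd3d encodes the delta chain. Its log2 intensities were 7.36, 7.07, 7.78 and 7.16 in knockout mice 1 to 4 and 7.26, 6.68, 7.21 and 7.72 in wildtype mice 1 to 4. Again knockout 3 and wildtype 4 were the highest colons, one of each genotype, and the groups overlapped. The difference was 0.13 (SE 0.23, interval -0.40 to 0.66, limma adjusted p = 0.85). It turned to -0.019 without knockout 3 and to -0.052 without wildtype 2, and was 0.294 without wildtype 4 and 0.216 without knockout 2.

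Cd3g encodes the gamma chain. Its log2 intensities were 7.68, 7.47, 8.40 and 7.77 in knockout mice 1 to 4 and 7.43, 6.97, 7.40 and 8.10 in wildtype mice 1 to 4. The other 3 wildtype colons lay below every knockout colon, while wildtype 4 lay above all but knockout 3. The difference was 0.36 (SE 0.27, interval -0.25 to 0.96, limma adjusted p = 0.612). It was 0.167 without knockout 3, 0.19 without wildtype 2 and 0.566 without wildtype 4.

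Cd3d and Cd3g lie next to each other on mouse chromosome 9 and are read in opposite directions. They shared their 2 highest colons and their lowest, wildtype 2. That was not particular to the pair: Cd8b1 had the same 2 highest and the same lowest, and Cd3e the same 2 highest. Nkg7 was the member with the smallest p. The RefSeq table of promoters (build GRCm38.p6) held 8 of the 10 genes, with none for Cd2 and Cd8b1. The 250 bases before the start of Cd3d, Cd3g and Nkg7 are printed 5′ to 3′ because they let the neighbours be compared with the gene that differed most from its error. Capitals mark matches, on either strand, to TGTGGT (bound by RUNX factors), AGGAAG (ETS factors), CAGGTG (an E-box) and TTCNNNGAA (the interferon gamma-activated site).
Cd3d (chr9:44981536-44981785, plus strand): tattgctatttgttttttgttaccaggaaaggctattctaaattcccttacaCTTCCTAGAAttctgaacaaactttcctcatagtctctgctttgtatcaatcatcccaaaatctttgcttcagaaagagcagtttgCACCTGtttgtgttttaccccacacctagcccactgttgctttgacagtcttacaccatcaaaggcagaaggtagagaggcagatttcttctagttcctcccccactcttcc
Cd3g (chr9:44980432-44980681, minus strand): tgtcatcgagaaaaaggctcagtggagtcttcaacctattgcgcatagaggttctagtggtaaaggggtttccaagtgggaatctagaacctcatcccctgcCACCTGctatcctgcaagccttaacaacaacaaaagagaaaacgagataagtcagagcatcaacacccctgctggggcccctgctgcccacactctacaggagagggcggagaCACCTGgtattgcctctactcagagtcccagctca
Nkg7 (chr7:43436888-43437137, plus strand): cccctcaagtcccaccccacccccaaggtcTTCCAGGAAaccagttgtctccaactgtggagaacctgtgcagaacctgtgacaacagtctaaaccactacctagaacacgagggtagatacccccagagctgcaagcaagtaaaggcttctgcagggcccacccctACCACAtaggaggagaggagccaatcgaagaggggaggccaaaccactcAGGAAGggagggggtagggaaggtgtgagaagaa

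The window of Cd3d held 1 match to the ETS letters, 1 to the E-box and 1 to the interferon gamma-activated site, with the ETS and interferon matches overlapping. That of Cd3g held 2 E-box matches. That of Nkg7 held 1 match to the RUNX letters, 1 to the ETS letters and 1 to the interferon gamma-activated site. Over all 32841 windows of the same length, 14.0% held the RUNX letters, 29.5% the ETS letters, 17.2% the E-box and 7.02% the interferon gamma-activated site. The windows of the other members in the promoter table, Cd3e, Cd8a, Lck, Gzma and Gzmb, held no match to the interferon gamma-activated site. Nkg7 was printed for its p in these same data, so the share of matches among the printed windows is not a result. A match describes the letters in the window and is not evidence of binding.

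**Figure D1:**
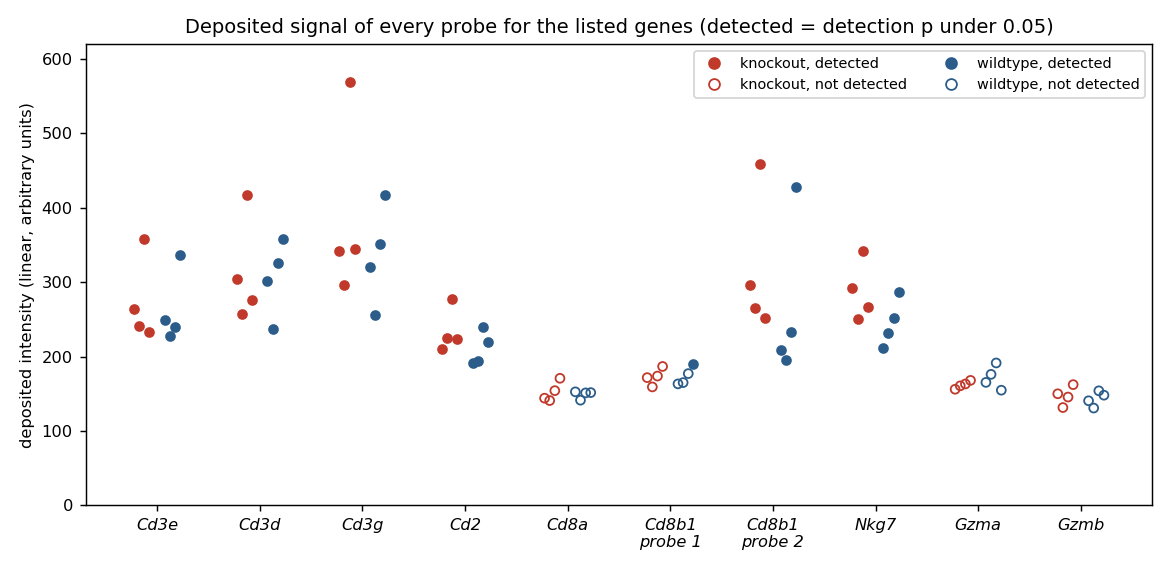
Deposited intensity (linear, y axis from 0) of each of the 10 probes (x axis) in the 8 colons. Knockout is left of wildtype for each probe, filled points are detected (detection p under 0.05) and open points are not. Cd8a, Gzma and Gzmb have open points on all 8 arrays, and the first of the Cd8b1 probes has 1 filled point, wildtype 4.

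Cd2 encodes an adhesion receptor of T and natural killer cells that binds CD48 in the mouse. Its log2 intensities were 6.15, 6.57, 6.72 and 6.35 in knockout mice 1 to 4 and 5.53, 5.77, 6.22 and 6.19 in wildtype mice 1 to 4. Of the knockout colons 3 lay above every wildtype colon, and knockout 1 lay below wildtype 3 and 4. The means were 6.45 ± 0.25 and 5.93 ± 0.33 (SD, n = 4 each, exact test below). The difference of 0.52 (SE 0.19, interval 0.087 to 0.96) is 1.44-fold, with an unadjusted limma p of 0.0238 and an adjusted one of 0.408. In an exact two-sided permutation test over the 70 assignments of 4 mice, whose smallest possible p is 0.0286, Cd2 had p = 0.0857. Its deposited intensity was 191.3 to 277.1 over the 8 colons, with detection p of up to 0.0401.

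The CD8 coreceptor gave a signal for its beta chain only. Cd8b1, the beta chain, had log2 intensities of 7.28, 7.16, 7.98 and 6.85 in knockout mice 1 to 4 and 5.95, 5.82, 6.09 and 8.15 in wildtype mice 1 to 4. Wildtype 4 was the highest of all 8 colons, while the other 3 wildtype colons lay below every knockout colon. The means were 7.32 ± 0.48 in knockout and 6.50 ± 1.10 in wildtype colons (SD, n = 4 each). The deposited intensity was 195.6 to 459.3 over the 8 colons, with detection p of up to 0.0163.

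The Cd8b1 difference of 0.82 (SE 0.50, interval -0.31 to 1.94) had a limma adjusted p of 0.549. Its spread within genotypes, an SD of 0.85, was wider than that of 97.7% of the tested genes, taken at all signal levels. Without wildtype 4 the difference was 1.36 (SE 0.25, interval 0.78 to 1.95), and the limma adjusted p was 0.443, within a range of 0.285 to 0.985 over the alternatives tried. A second Cd8b1 probe lay near background and was detected on 1 of 8 arrays, wildtype 4, at a deposited intensity of 189.7 (detection p 0.0414). Wildtype 4 was the highest array on both probes. On the second probe knockout 4 read 186.7 without being detected, and knockout 3, second highest on the tested probe, was the lowest of the 8. The genotype difference on this second probe was 0.013.

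Cd8a, the alpha chain that CD8 needs at the cell surface, was not detected on any array. Its deposited intensity was 140.9 to 170.8, with detection p between 0.336 and 0.914. The alpha chain can therefore be given no genotype difference here. The arrays do not show why one chain gave a signal and the other none, and levels of different probes cannot be set against each other.

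Nkg7 encodes a membrane protein of the granules of natural killer and cytotoxic T cells. Its log2 intensities were 7.25, 6.97, 7.31 and 7.04 in knockout mice 1 to 4 and 5.99, 6.59, 6.40 and 7.12 in wildtype mice 1 to 4. The knockout colons lay close together, with an SD of 0.16, against 0.47 in wildtype colons (n = 4 each), and only wildtype 4 reached into their range. The difference of 0.62 (SE 0.22, interval 0.12 to 1.12) is 1.54-fold. By limma the unadjusted p was 0.0212 and the adjusted p 0.401, and the exact permutation p over 4 and 4 mice was 0.0857. Without wildtype 4 the difference was 0.82 (limma adjusted p = 0.443), and with the sex pattern as a term it was 0.83 (limma adjusted p = 0.653). Over all alternatives its adjusted p lay between 0.223 and 0.996.

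The granzymes gave no signal above background. Gzma, a tryptase of the granules, had detection p between 0.103 and 0.744, and Gzmb, an aspartate-specific protease that triggers caspases, between 0.55 and 0.98. Their deposited intensities were 154.8 to 191.4 and 130.8 to 162.3 over the 8 colons. At this signal over background, a genotype difference in either granzyme was not detectable.

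**Figure D2:**
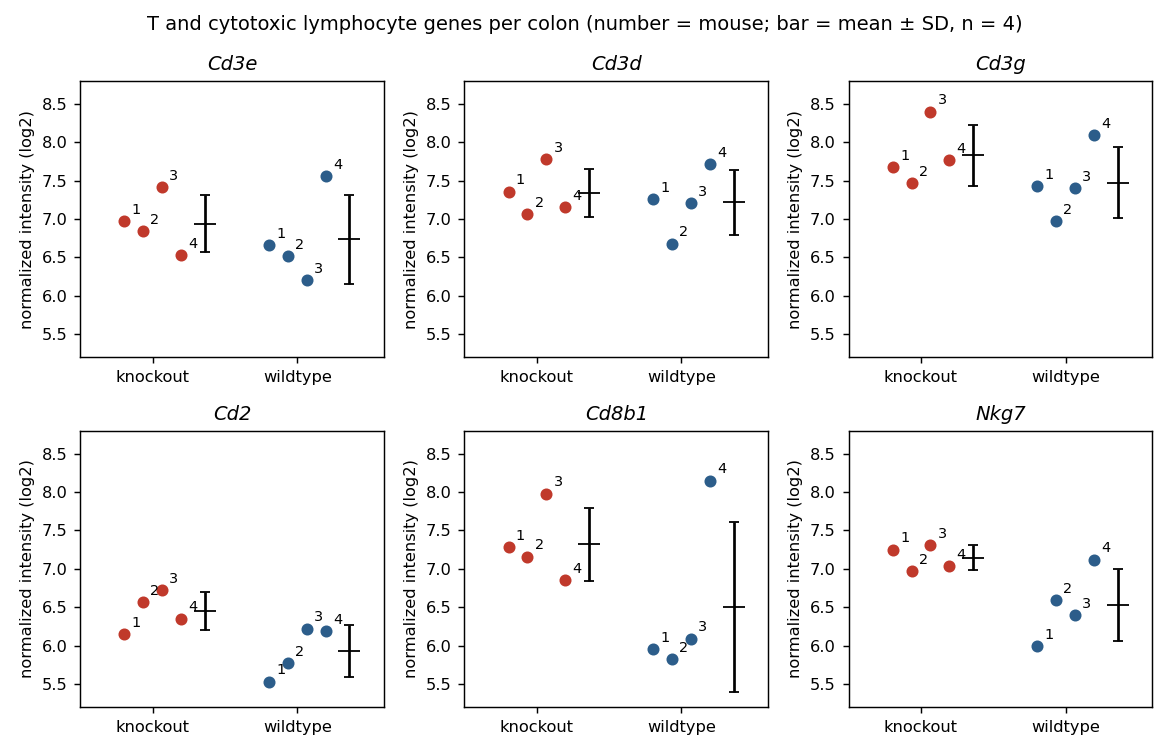
Normalized log2 intensity (y axis) of the 6 measured genes in each knockout (left, red) and wildtype (right, blue) colon. Numbers give the mouse and the black bars the mean ± SD of 4 mice; wildtype 4 stands with or above the knockout colons for Cd3e, Cd3d, Cd3g, Cd8b1 and Nkg7.

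The same 2 colons led most of the genes. Knockout 3 was the highest of the 8 for 4 of the 6 genes and among the top 2 for all 6. Wildtype 4 was the highest for Cd3e and Cd8b1 and among the top 2 for 4 of the 6. At the low end, wildtype 2 was the lowest for Cd3d, Cd3g and Cd8b1, wildtype 1 for Cd2 and Nkg7, and wildtype 3 for Cd3e. The mean deviation of the 6 genes from their own means was 0.17, 0.066, 0.65 and -0.0010 in knockout mice 1 to 4, and -0.48, -0.56, -0.37 and 0.52 in wildtype mice 1 to 4. Spread within genotypes was wide for these genes: their SDs of 0.295 to 0.849 stand beside a median of 0.24 over all tested genes. Their mean level was low, with between 12.9% (Cd2) and 31.8% (Cd3g) of all tested genes below them. The spread of other genes of like level was not compared.

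Wildtype 4 lay above the wildtype mean for each of the 6 genes, so leaving it out had to raise each difference. Without it 4 genes (Cd3g, Cd2, Cd8b1 and Nkg7) were at an unadjusted limma p under 0.05, against 2 with all mice. Past the adjusted threshold were 0. The share of all tested genes at that unadjusted level without wildtype 4 was not counted, so nothing is read from the 4. Leaving out knockout 3 or wildtype 1 left 0 at that unadjusted level. With array position as a term 1 of the 6 genes, Nkg7 at 0.039, was higher and the median turned to -0.20, against 0.035 over all tested genes, with intervals of up to -2.65 to 1.74 for Cd8b1. Wildtype 4 also had the highest summed signal of stratified epithelium markers (82284, against 1487 to 35950 in the other wildtype colons). Whether these transcripts or the position of an array had a part in the lymphocyte values was not tested further.

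**Figure D3:**
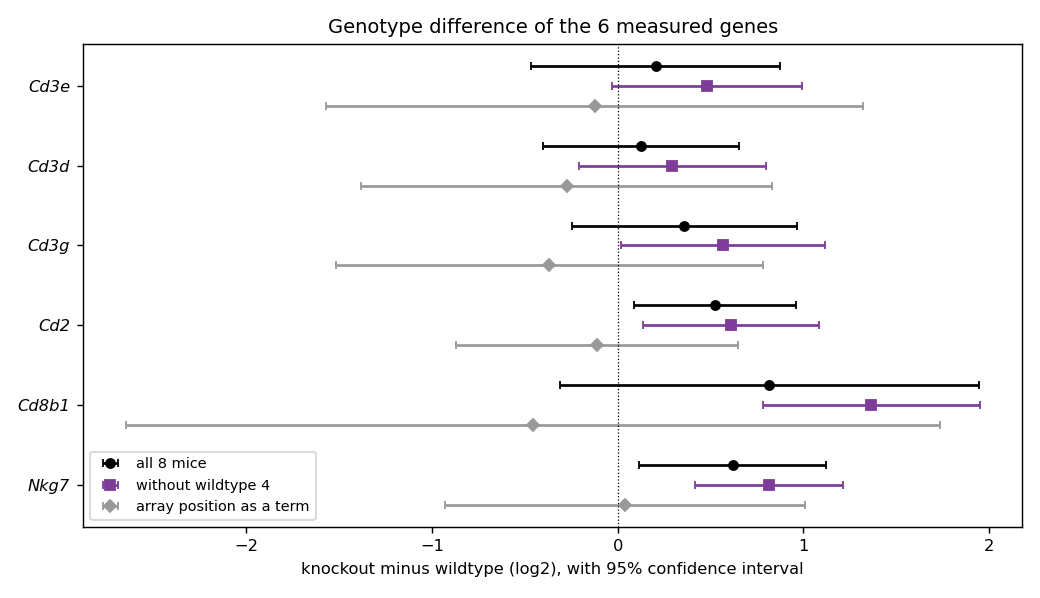
Knockout minus wildtype difference (log2, x axis) of the 6 measured genes with 95% confidence intervals, for all 8 mice (black), without wildtype 4 (purple) and with array position as a term (grey). With all mice the intervals of Cd2 and Nkg7 lie above 0; with position as a term all 6 intervals hold 0.

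Other genes of T cell receptor signalling differed by -0.84 to 0.64. Of 19 genes on that list 17 had a probe, 8 could be tested, 7 were higher and 1 was lower in the knockout, with a median difference of 0.46. That median was 0.211 without wildtype 2, 0.299 without knockout 3, 0.153 without the filter on dim probes and 0.147 without background correction. By limma 0 were called. Unadjusted p was under 0.05 for Ptpn22, higher, and for Prkcq, lower. Lat, the adaptor that the receptor's kinases phosphorylate, differed by 0.64 (SE 0.31, adjusted p = 0.481). Zap70, the kinase that binds the phosphorylated CD3 chains, differed by 0.15 (SE 0.19) on one probe and by 0.49 on another. Lcp2, the adaptor SLP-76, differed by 0.22, the scavenger receptor family member Cd6 by 0.48 and the costimulatory receptor Cd27 by 0.47. Lat and Cd6 were each detected in 4 of 4 knockout and 2 of 4 wildtype colons, so some of their wildtype values lay near background. The costimulator Cd28 differed by 0.48 on one probe and by -0.35 on another, so its direction is uncertain. Ptpn22, a phosphatase that restrains receptor signalling, differed by 0.44 (SE 0.19, adjusted p = 0.454).

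Prkcq, the protein kinase C isoform of the T cell synapse, was the gene of this list that ran the other way. Its log2 intensities were 5.09, 5.2, 5.11 and 4.77 in knockout mice 1 to 4 and 5.71, 5.53, 6.08 and 6.22 in wildtype mice 1 to 4. It was detected in 0 of 4 knockout and 4 of 4 wildtype colons, so it passed the filter through the wildtype colons alone, and its p and lack of overlap support nothing by themselves. The wildtype mean lay 1.26-fold above the lowest detected signal of the knockout arrays, a value that carries no error of its own. The fit gave an adjusted p of 0.217 by limma, so a lower level in the knockout is not established. Cd4, the coreceptor of helper T cells, Ubash3a and Skap1 were detected on 0 arrays.

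Granule and natural killer cell genes outside the members had medians near 0. Of 16 cytotoxic granule and effector genes 8 could be tested, 6 were higher and 2 lower, with a median of 0.068 (0.037 without wildtype 4, 0.13 without wildtype 3) and 0 called or at an unadjusted limma p under 0.05. Ctsw, a cathepsin of cytotoxic cells, was at 7.64, 7.54, 8.01 and 6.84 in knockout mice 1 to 4 and 6.51, 7.21, 6.66 and 7.31 in wildtype mice 1 to 4, overlapping groups with a difference of 0.59 (SE 0.27, limma adjusted p = 0.474). Prf1, perforin, differed by -0.35 (SE 0.19, adjusted p = 0.521) and Gzmm, a further granzyme, by 0.044. Ctsc, the protease that activates granzymes and is also made by other cells, differed by 0.28 (SE 0.14, limma adjusted p = 0.496), and its groups did not overlap. Of genes that many cells share, Srgn, the core protein of granule proteoglycan, differed by 0.21, the granule release factors Unc13d by 0.092 and Stxbp2 by 0.033, and Rab27a, a GTPase of granule transport, by -0.18. Gzmc, Gzmk, Tbx21, Eomes and Serpinb9 were detected on 0 arrays. Of 11 natural killer cell receptor genes 3 could be tested, with a median of 0.023: Cd160 at 0.38, the chemokine Xcl1 at 0.023 and Klrd1, the CD94 chain, at -0.017. That median lay between -0.075 without knockout 3 and 0.238 without knockout 4, and it was also negative without knockout 1 (-0.031) and without wildtype 3 (-0.004). Ncr1, Klrk1 and Klre1 were detected on 0 arrays.

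Genes of homing and residence in the gut were higher in the knockout for all 4 tested of 15, with a median of 0.42 and 0 called by limma. Ccl5, a chemokine made by memory and cytotoxic T cells, was at 9.20, 9.28, 10.3 and 9.37 in knockout mice 1 to 4 and 8.57, 8.46, 8.65 and 9.54 in wildtype mice 1 to 4. As for the CD3 chains, knockout 3 and wildtype 4 were the highest colons, and the difference was 0.73 (SE 0.31, adjusted p = 0.449). Itgae and Itgb7, the integrin chains that hold lymphocytes in the epithelium, differed by 0.38 (SE 0.19) and 0.47 (SE 0.19), and the other Itgae probes ran down to -0.040. Cd69, a residence and activation marker, differed by 0.33. At an unadjusted p under 0.05 were 2 of these genes, Ccl5 and Itgb7. Without the filter on dim probes, when 11 genes entered, the median was 0.099.

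Helper and regulatory T cell genes had a median of 0.275 over 7 tested of 12, with 6 higher, 1 lower and 0 called or at an unadjusted limma p under 0.05. Foxp3, the factor of regulatory T cells, differed by 0.275, Ctla4, an inhibitory receptor, by 0.31, and the interleukin-7 receptor Il7r by 0.32. Icos and Tnfrsf4, costimulatory receptors, differed by 0.16 and 0.29, and Gata3, a factor of type 2 helper cells, by 0.21. Without knockout 4 the median was 0.122, and without background correction 0.087. Il2ra, the high-affinity interleukin-2 receptor chain, differed by -0.17. Knockout 4 had the highest mean of this list, at 0.53 above the average of the 8 mice, unlike the listed T cell genes, where its mean deviation was -0.0010.

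**Figure D4:**
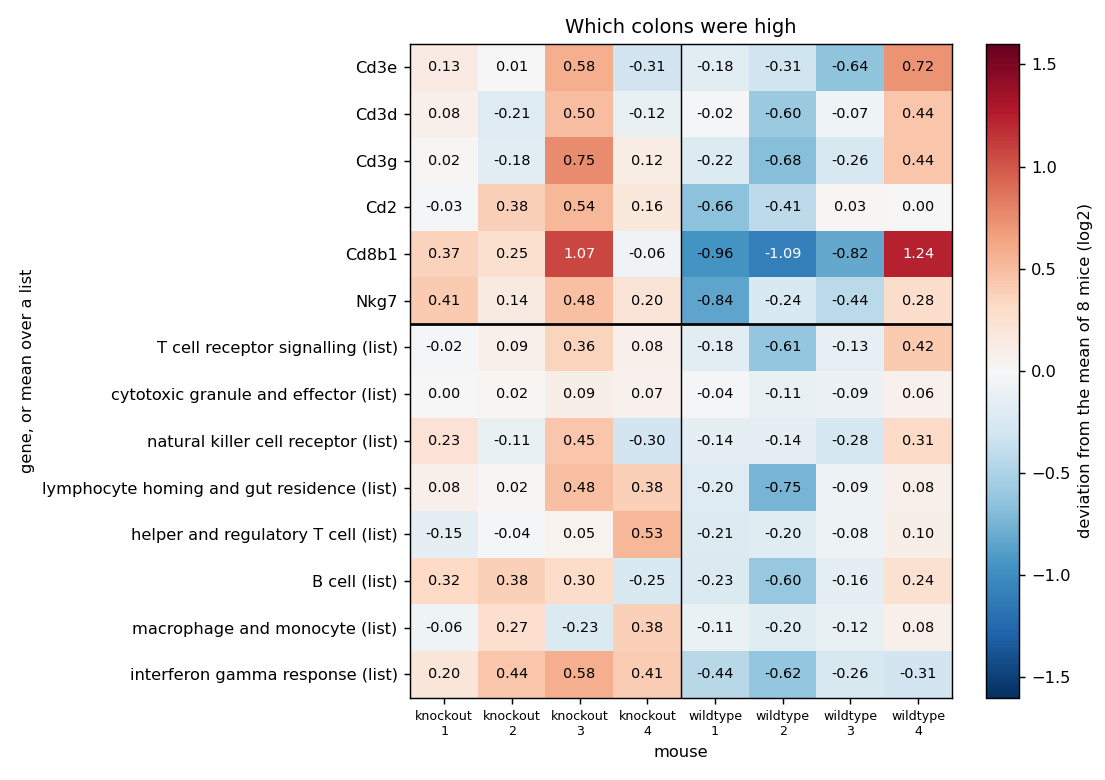
Deviation (log2, colour and printed number) of each of the 6 measured genes and of the mean of 8 gene lists (rows) from the average of the 8 mice, with knockout columns left of wildtype columns. Knockout 3 and wildtype 4 are positive for Cd3e, Cd3d, Cd3g, Cd8b1 and Nkg7, whereas the interferon gamma response list is positive in all 4 knockout and negative in all 4 wildtype mice.

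Markers of other cells that a whole colon holds were measured beside the lymphocyte genes, and their part in the result was not tested. The B cell list had 6 of 6 tested genes higher, a median of 0.32 and 0 called, and its summed linear signal was 645 to 922 in knockout and 451 to 917 in wildtype colons. Cd79a, a B cell receptor subunit, differed by 0.74 (SE 0.17, limma adjusted p = 0.284), while Cd79b, its partner, differed by 0.16 on one probe and by -0.255 on another. The inhibitory receptor Cd22 differed by 0.20, the kinase Blk by 0.45 and the IgE receptor Fcer2a by 0.016. The median was 0.178 without wildtype 2, 0.193 without knockout 2 and 0.497 without knockout 4. The defining markers Ms4a1 and Pax5 were detected on 0 arrays. Wildtype 2, the lowest colon for Cd3d, Cd3g and Cd8b1, was also the lowest for the B cell sum, and wildtype 4 was the second highest. The macrophage and monocyte list had 7 of 9 higher, a median of 0.29 and sums of 11116 to 17592 in knockout and 10379 to 13033 in wildtype colons. Adgre1, an adhesion receptor of macrophages, differed by 0.24, the lipopolysaccharide coreceptor Cd14 by 0.36, lysozyme Lyz2 by 0.35, the IgG receptor Fcgr1 by 0.655 (SE 0.15, limma adjusted p = 0.288) and the mannose receptor Mrc1 by 0.15. The median was 0.155 without knockout 2 and 0.184 without wildtype 1. Its order of mice differed: knockout 3, which led the T cell genes, was sixth of the 8.

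The interferon gamma response list had 11 of 11 tested genes higher, a median of 0.785 and 0 called by limma. At an unadjusted limma p under 0.05 were 9, against 6.70% of all tested genes higher at that level. In 9 of the 11 the groups did not overlap, against 4.85% of all tested genes. Without knockout 1 limma called 1 gene of this list. Ifng, which encodes the inducer, had a probe but did not pass the detection filter, so it was given no difference. Which signal or cells lay behind this list was not tested. Cxcl9, a chemokine that draws T cells, differed by 1.49 (SE 0.24, limma adjusted p = 0.191), Cxcl10 by 1.015, Tap1 by 1.09 and Psmb8 by 0.785, while Irf1 differed by 0.024. The sums were 46389 to 58326 in knockout and 37318 to 42599 in wildtype colons. Wildtype 4, with T cell values among the highest, stayed below every knockout colon on this sum, which is weighted to the brightest genes. On the mean log2 deviation of the list, where each gene counts alike, it was at -0.309, against 0.199 to 0.577 in knockout colons.

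Colon epithelium genes, 5 tested, had a median of -0.115 (-0.032 without knockout 4, -0.07 without wildtype 1) with 1 higher and sums of 76730 to 80642 in knockout and 76524 to 85235 in wildtype colons. Smooth muscle genes, 6 tested and 6 lower, had a median of -0.47 and sums of 61723 to 97536 in knockout and 85270 to 108661 in wildtype colons. Skeletal muscle genes, 6 of 7 higher with a median of 0.53, had sums of 1395 to 18679 in knockout and 801 to 7879 in wildtype colons. The direction of that median rested on single mice: it was -0.523 without knockout 2, -0.295 without wildtype 4, -0.105 without wildtype 1 and up to 1.334 without knockout 3. Stratified epithelium genes, 8 of 8 lower with a median of -0.87, had sums of 1750 to 34323 in knockout and 1487 to 82284 in wildtype colons, and Dsg3 was detected on 0 arrays. That median lay between -2.008 without wildtype 1 and -0.213 without knockout 3, and was -0.257 without wildtype 4. By limma 0 genes of these 4 lists were called, and 1, the smooth muscle actin Actg2, was at an unadjusted p under 0.05. Without the 4 mice with high skeletal muscle transcripts the lymphocyte median was 0.43, with 6 of 6 genes higher. That left knockout 1 and 3 and wildtype 1 and 4, among them both colons that led most of the lymphocyte genes. The differences then ran from 0.081 for Cd3d to 0.725 for Nkg7, and 0 were at an unadjusted limma p under 0.05.

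**Figure D5:**
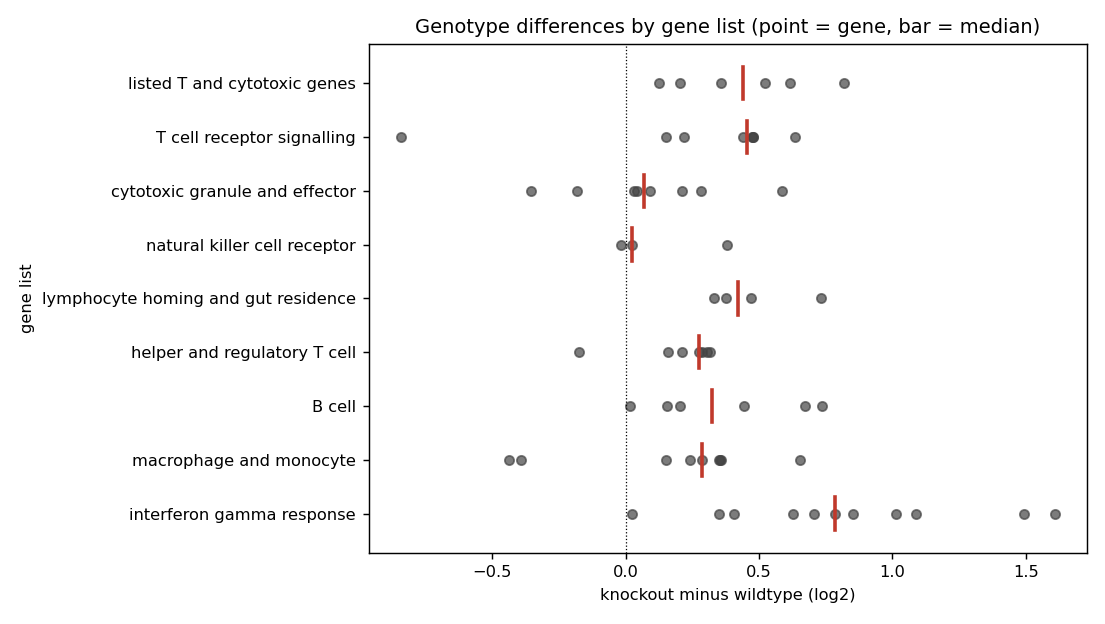
Knockout minus wildtype difference (log2, x axis) of each tested gene (point) in the listed T and cytotoxic genes and 8 related lists (rows), with the median as a red bar. The medians run from 0.023 for natural killer cell receptors to 0.785 for the interferon gamma response.

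Over the 8 colons, the genes whose profile was most like the mean standardised profile of the 6 measured members were picked by Pearson's r, as a description over 8 arrays that share the genotype groups. They were Lhx8 (r = 0.961), Msh6 (0.958), Ccl5 (0.958), Ywhae (0.936), Lat (0.924), Tbc1d15 (0.921), Gpatch2l (0.913) and D10Wsu102e (0.911). Of these, Ccl5 and Lat are the ones on the T cell lists. The others were picked from 10184 genes for their likeness, so the size of r is not a result.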

How the data were processed

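RNA of whole colons had been amplified with Illumina TotalPrep and labelled with Cy3, per the labels' protocols, and the submitters' processing notes name GenomeStudio, without a version. The deposited intensity values are linear average signals per probe, and the deposited detection p-value columns were taken to compare a probe with the negative controls on its array. A second table of the authors' processed intensity values matched a quantile normalization of the first to within 0.0278 (log2) and served as an alternative.

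Symbols came from the platform annotation (23978 probes named, 1719 not). The neqc function of limma 3.58.1 (R 4.3.3) corrected the background through the detection p-values, added an offset of 16, took quantile normalization and gave log2 values. Probes with detection p under 0.05 on at least 4 of 8 arrays were tested (14754), with genotype as the only term, by lmFit and eBayes, two-sided, with Benjamini-Hochberg adjustment over all of them and a threshold of 0.05. A gene with several tested probes is given by the one with the highest mean. The fit was tested on simulated data with known changes. The number of arrays limits the precision.

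Members and lists were chosen with earlier results of these data known. Genes that could be named with values were the members, the first 8 tested genes of each of the 5 lymphocyte lists, the first 5 of each other list, Ihh, and the 8 genes most like the members. The 4 tissue lists are given by counts and sums. All sums are of linear values, so the brightest genes of a list weigh most in them. Genes detected on no array, Ifng, Actg2 and second probes fall outside this rule and were picked with their values in view. Lists were given no test. Other settings tried were cyclic loess, median scaling, raw values with no background step, the authors' table, other filters on dim probes, array position, a block for the replicate number, sex pattern by Xist, array weights, the mean of a gene's probes, and leaving out mice.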

Additional observations from a re-analysis of the deposited data

Results flagged for a closer look

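Cd8b1 in wildtype 4 stood apart from the other wildtype colons. Its gap to the next wildtype value was 0.883 of the range of the 4, above the 95% critical value of Dixon's test for 4 samples. The log2 intensity was 8.15 in wildtype 4 and 5.82 to 6.09 in the other 3 wildtype colons, and the deposited intensity 427.4 and 195.6 to 232.6. Of 12 such tests over the 6 measured genes and both genotypes, 1 passed, where chance passes about 1 in 20. Wildtype 4 was also highest for Cd3e. On the second Cd8b1 probe, near background, it read 189.7 against 186.7 in knockout 4, which was not detected.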

How the results depend on the processing

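Of the 6 measured lymphocyte genes 0 were called by limma under any of the 20 alternatives. The number higher in the knockout was 6 in most of them, 8 of 9 without a filter on dim probes, 3 of 3 with detection p under 0.01 on all arrays, where Cd2, Cd8b1 and Nkg7 could not be tested, and 1 of 6 when position along the chip was a term. The median difference lay between 0.188 (no background correction) and 0.589 (without wildtype 4), except that it was -0.20 once position along the chip entered. With position, differences turned to -0.111 for Cd2, -0.274 for Cd3d, -0.125 for Cd3e, -0.368 for Cd3g and -0.457 for Cd8b1 (limma adjusted p of 0.985 to 0.995), and that of Nkg7 was 0.039. The cause was not tested. Without background correction Nkg7 was at 0.257, Cd2 at 0.175 and Cd8b1 at 0.306. Leaving out each mouse in turn gave 5 to 6 genes higher, medians of 0.30 to 0.589, and Cd3d between -0.052 and 0.294, with -0.019 without knockout 3.

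Of all probes tested, 2 were called. The count was 0 without background correction, in the authors' table, with detection p under 0.01 on all arrays, with the replicate block, with array position, with the sex pattern and without the 4 mice with high skeletal muscle transcripts, 1 after averaging probes by gene, and 0 to 14 when 1 mouse was left out, with 14 without knockout 1. The labels name no pairing of mice by replicate number, and these data cannot show whether there was one. Deviations of same-numbered mice correlated at 0.136, 0.21, -0.178 and -0.038. Of the 4 knockout mice 2 correlated best with the wildtype mouse of their own number. With equal groups the replicate block leaves each difference as it was and changes only its error: Nkg7 (0.618) had a limma adjusted p of 0.518 and Cd2 (0.524) one of 0.443.

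Among the related lists, array position turned the medians of T cell receptor signalling (-0.217), lymphocyte homing and gut residence (-0.068), helper and regulatory T cells (-0.351), macrophages and monocytes (-0.185), natural killer cell receptors (-0.081) and skeletal muscle (-0.032), and moved that of stratified epithelium to -3.812 and that of the interferon gamma response to 0.525. The last was 0.557 without background correction. Low signal over background limits Cd2, Cd8b1 and Nkg7, which could not be tested at detection p under 0.01 on all arrays. It leaves Cd8a, Gzma and Gzmb without a measurement.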
